A study of Mus musculus with 20 samples.

Results

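Neutrophils are short-lived phagocytes that carry ready-made antimicrobial proteins in granules and follow chemokines from the blood into tissue. Their granules are filled in order during development in the bone marrow, first primary, then secondary and then tertiary granules, so that the transcripts of each granule mark a stage of maturation. Trem1 encodes a receptor on neutrophils and monocytes that signals through the adaptor Tyrobp (DAP12) and the kinase Syk and amplifies inflammatory responses started by Toll-like receptors.

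The genes described here are 10 of the 24062 genes measured in RNA of microglial preparations from mThy1-α-synuclein and wild-type (WT) mice, and they were taken by their symbols. They are S100a8 and S100a9, which encode the subunits of calprotectin, the granule genes Ngp, Camp, Ltf and Mmp9, the resistin-like gene Retnlg, the chemokine receptor gene Cxcr2, Trem1 and 1100001G20Rik. The current name of 1100001G20Rik is Wfdc21, and it encodes a small protein with a whey acidic protein domain. All 10 were in the table and passed the filter on low values at both ages.

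RNA was sequenced from 6 mThy1-α-synuclein and 4 WT males at 7 months of age, and from 5 and 5 males at 10 months. The mThy1-α-synuclein mice overexpress full-length human wild-type α-synuclein from the murine Thy-1 promoter, which is used to drive expression in neurons, with the transgene on the X chromosome, and both genotypes have a B6D2F1/J background. Each sample was the whole brain of 1 mouse, not pooled, from which myelin and red blood cells were removed before cells were taken with magnetic beads, called CD11b beads in the study's methods and IBA1 beads in the sample labels. CD11b, the product of Itgam, is carried by microglia and also by neutrophils and monocytes, and no measure of purity was used here. Between 33404096 and 77806399 reads per mouse were counted on genes. The values are normalized counts, that is, gene counts divided by 1 size factor per mouse. Each age was processed and normalized on its own, so that age and processing cannot be told apart.

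All 11 microglia markers were abundant in the preparations, with 14442 normalized counts (Aif1) or more in the median of the 20 mice. The 10 genes together took between 0.0850% and 0.840% of the counted reads of a mouse. In such bulk RNA, fewer cells of a type and less RNA per cell cannot be told apart. Per kilobase of exon, reads per 1000000 counted reads averaged 2793 ± 1550 for S100a9 (SD, n = 20), 1470 ± 784 for S100a8, 672 ± 419 for Ngp, 191 ± 114 for Retnlg, 162 ± 127 for Camp and 119 ± 67.0 for Ltf. Lower on that scale were 1100001G20Rik at 33.6 ± 24.6, Mmp9 at 21.5 ± 10.5, Cxcr2 at 21.4 ± 14.7 and Trem1 at 9.12 ± 4.76. S100a9 and S100a8 stood at the top of the order and Trem1 at the bottom, and neighbours in this order differed by more than the larger of their SDs between mice only from S100a8 to Ngp, from Ngp to Retnlg and from Ltf to 1100001G20Rik. Even the lowest read number of any member in any mouse was 119, for 1100001G20Rik, and that of Trem1 was 396.

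The members lie on 7 chromosomes in the GRCm38 (mm10) annotation. S100a8 (chromosome 3, 90668978 to 90670035, plus strand) and S100a9 (chromosome 3, 90692632 to 90695721, minus strand) are 22.6 kb apart. Camp (chromosome 9, 109847379 to 109849617, minus strand), Ngp (110419747 to 110423012, plus strand) and Ltf (111019271 to 111042767, plus strand) share a stretch of chromosome 9, with gaps of 570.1 kb between Camp and Ngp and 596.3 kb between Ngp and Ltf. The others are Cxcr2 (chromosome 1, 74153989 to 74161246), Mmp9 (chromosome 2, 164940780 to 164955850), 1100001G20Rik (chromosome 11, 83746940 to 83752642), Retnlg (chromosome 16, 48872621 to 48874496) and Trem1 (chromosome 17, 48232768 to 48246924), all on the plus strand. Trem1 is the only member that overlaps another annotated gene, a processed pseudogene on the minus strand, and whether reads were counted by strand is not given in the sources used here.

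The bases before the RefSeq starts of the members were read for short motifs. Whether such motifs bear on how the members move from mouse to mouse was not tested. C/EBP and PU.1 are transcription factors of myeloid cells, C/EBPε being needed for secondary granule genes, and the motifs searched on both strands were TTNNGCAA (C/EBP type), GAGGAA (PU.1 type) and TATAAA, which do not overlap in the windows shown. The table of RefSeq promoters for GRCm38.p6 held 8 of the 10 members, without Mmp9 and 1100001G20Rik. In the 250 bases before the start, TTNNGCAA was present for 4 of 8 members (S100a9, Ngp, Ltf and Retnlg) against 9.57% of the 32817 windows of the table. GAGGAA was present for 4 of 8 (S100a8, Ltf, Cxcr2 and Trem1) against 23.2% of the windows, and TATAAA for S100a8 alone against 12.4%. A match is a run of letters and not a measured binding site. The windows of S100a8 (chr3:90668821-90669070, plus strand), Ngp (chr9:110419558-110419807, plus), Ltf (chr9:111019042-111019291, plus) and Trem1 (chr17:48232489-48232738, plus) are shown because they hold, in this order, a PU.1 type match beside a TATA match, a pair of C/EBP type matches, both types, and the match of the receptor gene. They run 5′ to 3′ and end at the base before the start, with matches in capitals. A GAGGAA match on the minus strand reads TTCCTC.
S100a8: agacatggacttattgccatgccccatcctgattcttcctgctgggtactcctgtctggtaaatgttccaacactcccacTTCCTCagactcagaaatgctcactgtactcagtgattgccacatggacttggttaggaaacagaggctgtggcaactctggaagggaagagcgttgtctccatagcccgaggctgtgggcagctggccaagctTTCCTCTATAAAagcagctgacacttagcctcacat
Ngp: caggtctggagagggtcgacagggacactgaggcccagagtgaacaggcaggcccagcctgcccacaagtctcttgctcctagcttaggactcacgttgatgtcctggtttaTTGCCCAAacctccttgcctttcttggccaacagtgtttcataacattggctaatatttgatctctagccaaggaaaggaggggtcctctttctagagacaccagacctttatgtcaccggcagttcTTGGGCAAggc
Ltf: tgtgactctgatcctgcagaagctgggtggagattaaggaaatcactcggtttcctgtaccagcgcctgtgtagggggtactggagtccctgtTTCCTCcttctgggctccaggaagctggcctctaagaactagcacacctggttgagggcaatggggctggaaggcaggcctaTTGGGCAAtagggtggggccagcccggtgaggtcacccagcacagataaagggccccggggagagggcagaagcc
Trem1: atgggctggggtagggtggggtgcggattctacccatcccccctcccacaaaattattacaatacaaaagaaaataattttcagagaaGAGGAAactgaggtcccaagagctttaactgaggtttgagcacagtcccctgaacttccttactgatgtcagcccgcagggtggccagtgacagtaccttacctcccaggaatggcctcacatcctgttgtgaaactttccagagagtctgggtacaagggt

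At 7 months the question was whether the members differed between mThy1-α-synuclein and WT mice. None of the 10 was a differentially expressed gene (DEG, an adjusted p under 0.05 in limma's test across all genes with Benjamini-Hochberg adjustment), beside 4.93% of the 13887 genes tested (2.7% lower and 2.23% higher). No member had an unadjusted p under 0.05 either, beside 21.3% of genes. On recovered reads edgeR called 0 of 10, beside 695 of 13887 genes, and DESeq2 0 of 10, beside 1166 of 13342. The mean differences ran from -0.15 for Camp to -1.22 for 1100001G20Rik on the log2 scale, with standard errors from 0.47 to 0.92 and adjusted p from 0.432 to 0.947. In edgeR and DESeq2 the estimates of Camp (0.33 in both) and Ngp (0.0071 and 0.00015) were above 0. The median over the members was -0.58, and that of all genes tested was 0.000935.

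The spread within the mThy1-α-synuclein group at 7 months was wide. S100a8 was at 19190, 18375, 11350, 67856, 105141 and 59806 normalized counts in mThy1-α-synuclein replicates 1 to 6, and at 71125, 66885, 61592 and 19253 in WT replicates 1 to 4. Replicates 1, 2 and 3 of the mThy1-α-synuclein mice and replicate 4 of the WT mice were low and the other mice of both genotypes were high, so that the groups overlapped, as they did for all 10 members, where 7.53% of all genes had groups without overlap (3.97% with the mThy1-α-synuclein mice lower). Trem1 was low in the same mice, with 572, 404, 456, 2010, 1968 and 1412 in mThy1-α-synuclein replicates 1 to 6 and 1915, 1757, 1571 and 624 in WT replicates 1 to 4. Camp, the gene of the antimicrobial cathelicidin, had the widest range of any member in a group, from 1236 to 22036 in the mThy1-α-synuclein mice, a ratio of 17.8. Cxcr2 had the narrowest among these mice, from 1145 to 4036, a ratio of 3.53. On the log2 scale the SD of the members among mThy1-α-synuclein mice of 7 months was 0.88 for Cxcr2 to 1.62 for Camp, beside a median of 0.20 over all genes tested. In the other groups the SD of the members was 0.43 to 1.08, beside medians of 0.18 to 0.19.

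**Figure D1:**
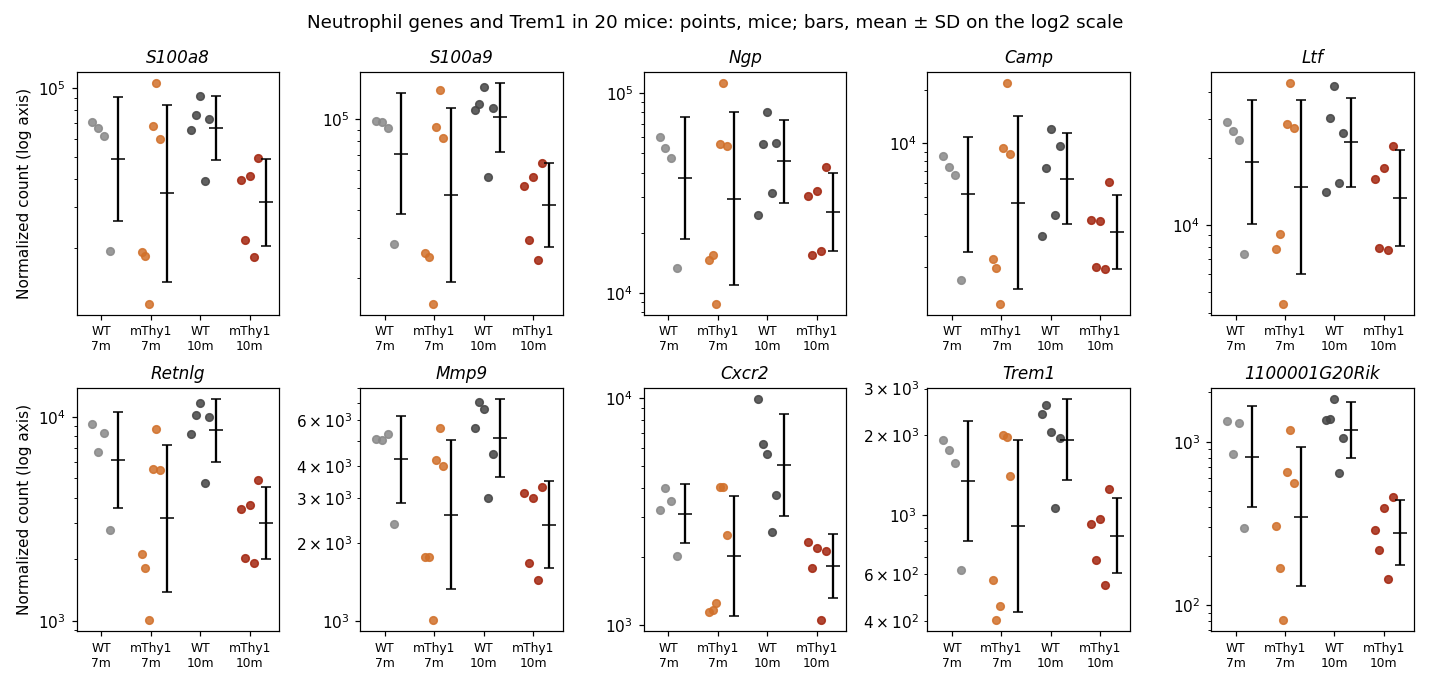
Normalized counts of the 10 genes on a log axis, with 1 point for each mouse, the groups on the x axis (4 WT and 6 mThy1-α-synuclein mice at 7 months, 5 and 5 at 10 months) and bars for the mean ± SD on the log2 scale. At 7 months the mThy1-α-synuclein mice spanned the WT range (S100a8 from 11350 to 105141), and at 10 months the groups of 1100001G20Rik and Cxcr2 did not overlap.

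At 10 months 4 of the 10 genes were called, all lower in mThy1-α-synuclein mice: 1100001G20Rik, Retnlg, Cxcr2 and Trem1, beside 7.67% of the 13627 genes tested (3.79% lower and 3.88% higher). The other 6 had differences from -0.84 to -1.28 on the log2 scale with adjusted p from 0.0533 to 0.276. At an unadjusted p under 0.05 there were 7 members, beside 23.5% of all genes. The members moved together from mouse to mouse (median r of 0.845 over their pairs at 10 months), so that these calls are not independent of each other. Over the 10 genes the median difference was -1.16, and that of all genes tested was -0.00257. The number of members called was 1 or 2 when any single mouse other than mThy1-α-synuclein replicate 5 (3 called) or WT replicate 4 (7 called) was left out. Over all 13627 genes the fits that left out a mouse called 497 to 1235.

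1100001G20Rik had the largest difference of the members. It was at 290, 218, 393, 145 and 461 normalized counts in mThy1-α-synuclein replicates 1 to 5 and at 1365, 1380, 1820, 640 and 1056 in WT replicates 1 to 5. Every mThy1-α-synuclein mouse was below every WT mouse, as was the case for 3.49% of all genes tested (7.27% had groups without overlap in either direction). The log2 difference was -2.09 (SE 0.36, adjusted p = 0.0110, limma), and the gene was called whichever mouse was left out, with differences from -1.85 to -2.31.

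Cxcr2, the receptor for neutrophil-attracting chemokines such as Cxcl1 and Cxcl2, was the other member without overlap. It was at 2310, 1780, 2183, 1050 and 2121 normalized counts in the mThy1-α-synuclein mice and at 9889, 6245, 5686, 2554 and 3724 in the WT mice. WT replicate 1 was far above the rest, and the lowest WT mouse, replicate 4, was just above the highest mThy1-α-synuclein mouse. The log2 difference was -1.48 (SE 0.38, adjusted p = 0.0483, limma). It was called without WT replicate 4 and in none of the other 9 fits that left out a mouse, where the adjusted p was 0.0716 to 0.103.

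Retnlg, a resistin-like gene of myeloid cells, was at 3518, 2042, 3683, 1923 and 4909 normalized counts in the 5 mThy1-α-synuclein replicates and at 8204, 10220, 11665, 4753 and 9913 in WT mice. Only mThy1-α-synuclein replicate 5 and WT replicate 4 crossed. The log2 difference was -1.51 (SE 0.33, adjusted p = 0.0301, limma), and the call was lost in 7 of the 10 fits without a mouse, with adjusted p up to 0.0694.

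Trem1 was at 929, 677, 967, 546 and 1256 normalized counts in the 5 mThy1-α-synuclein replicates and at 2396, 2596, 2052, 1062 and 1948 in WT mice. WT replicate 4 lay among the mThy1-α-synuclein mice and the other WT mice lay above all of them. The means were 875 ± 276 and 2011 ± 591 (SD, n = 5 and 5), and the log2 difference was -1.20 (SE 0.28, adjusted p = 0.0367, limma). The call was lost in 8 of the 10 fits without a mouse, with adjusted p up to 0.0819.

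Of the members that were not called, S100a9 came nearest, at -1.28 (SE 0.34, adjusted p = 0.0533, limma). It averaged 44888 ± 17282 normalized counts in the mThy1-α-synuclein group and 106542 ± 30464 in the WT group (SD, n = 5 and 5). Mmp9, the gelatinase of tertiary granules, differed by -1.11 (SE 0.32, adjusted p = 0.0693) and S100a8 by -1.08 (SE 0.33, adjusted p = 0.0896). The estimates of the secondary granule genes were -1.0 for Camp (SE 0.48, adjusted p = 0.253), -0.84 for Ngp (SE 0.41, adjusted p = 0.258) and -0.84 for Ltf, the lactoferrin gene (SE 0.42, adjusted p = 0.276). For these 3 genes WT replicates 1 and 4 lay within the range of the mThy1-α-synuclein mice, with Ngp at 24628 and 31434 normalized counts. DESeq2 on the recovered reads called S100a8, S100a9 and Mmp9 in addition, as did the fit without WT replicate 4, each giving 7 of 10. Over all genes these 2 fits called 1697 of 13359 and 1235 of 13627. edgeR added S100a9, at an adjusted p of 0.0499, giving 5, beside 1080 of 13627 genes. Without the filter on low values the call of Cxcr2 was lost (adjusted p = 0.0528, limma), leaving 3, beside 860 of 18595 genes.

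Markers of other cells also differed with genotype, and their part in these differences was not tested. Of 9 T and NK cell genes tested, 7 were called lower in mThy1-α-synuclein mice at each age, with a median log2 difference of -1.65 at 7 months and -1.48 at 10 months. The summed normalized counts of this list were 480 to 1293 in mThy1-α-synuclein and 1802 to 3524 in WT mice at 7 months, and 564 to 985 and 1293 to 3148 at 10 months, while Cd3e and Cd3g were near 0, at 26.0 and 21.3 at most. Of 11 monocyte genes, none was called at 7 months and 5 were called lower at 10 months (Hp, Plac8, Ms4a4c, F13a1 and Fn1). Some genes stand in more than 1 list, so that the counts of calls are not separate, and Hp is also in the neutrophil granule list. The summed monocyte list was 20158 to 29836 in mThy1-α-synuclein and 28624 to 49434 in WT mice at 10 months, and 17802 to 46674 and 26414 to 45706 at 7 months. Of 7 border macrophage genes, 4 were called lower at 10 months (Mrc1, Cbr2, Pf4 and F13a1, the last also in the monocyte list) and none at 7 months. Of the 11 microglia markers, Gpr34 was called higher at 7 months and Sall1, Cx3cr1 and Siglech at 10 months, with log2 differences of 0.53, 0.30, 0.21 and 0.31. At 7 months 4 of 6 neuron genes (median log2 difference of the list -1.97), 3 of 6 oligodendrocyte genes (-1.20) and 2 of 6 endothelial genes (-0.60) were called lower in mThy1-α-synuclein mice, and at 10 months none of these lists had a call. Their summed normalized counts at 7 months did not overlap between mThy1-α-synuclein and WT mice, at 163 to 344 and 456 to 1080 for the neuron list, 4628 to 6796 and 9261 to 14679 for the oligodendrocyte list and 2556 to 4523 and 4929 to 5874 for the endothelial list. At 10 months the same sums overlapped, at 224 to 466 and 187 to 362, 4833 to 7712 and 6064 to 12160, and 3776 to 7763 and 4407 to 8530. Of 6 astrocyte genes 1 was called lower and 1 higher at 7 months and 1 higher at 10 months. Of 6 platelet genes 1 was called lower at 10 months, Pf4, which is also counted in the border macrophage list. No B cell gene was called at either age. Hba-a1, Hba-a2, Hbb-bs and Hbb-bt, the hemoglobin genes, were listed at 0 in every mouse. Alas2, a further erythroid gene, was above 0 in every mouse, with a median of 13.2 normalized counts. The counting settings are not given in the sources used here, so the hemoglobin values do not show that these transcripts were absent.

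The difference between the ages was tested itself. The 10-month effect of genotype less the 7-month effect was estimated from -0.40 for Mmp9 to -0.87 for 1100001G20Rik, and none of the 10 was called (adjusted p from 0.442 to 0.805), beside 6.6% of 14030 genes. No member had an unadjusted p under 0.05, beside 22.2% of all genes. On recovered reads edgeR and DESeq2 called no member, beside 954 of 14030 and 1334 of 13755 genes. That members were called at 10 months and not at 7 therefore does not show that the genotype difference changed with age.

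**Figure D2:**
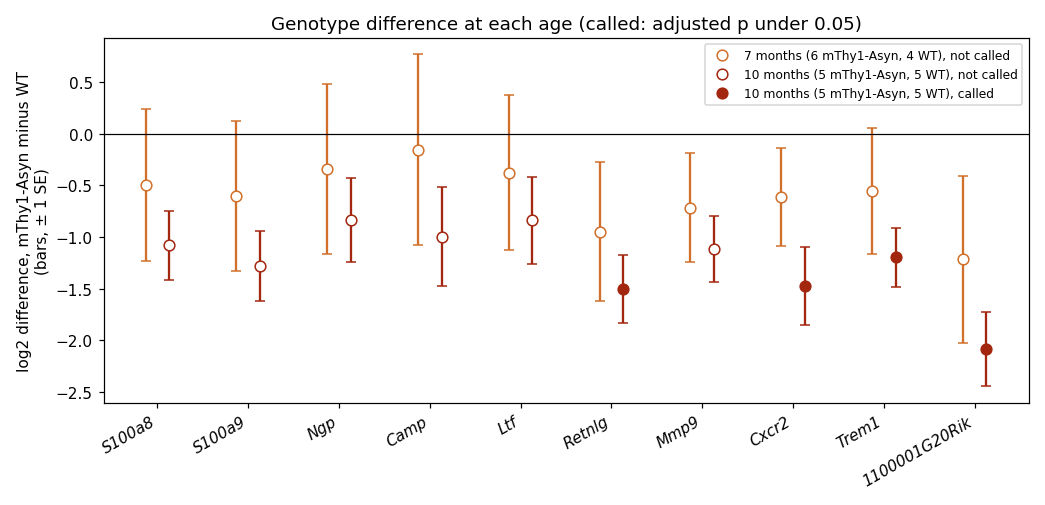
Log2 difference between mThy1-α-synuclein and WT mice for each gene at 7 and at 10 months, with bars of 1 standard error. The 7-month standard errors reach 0.92, and the 4 filled points at 10 months are the called genes, from -1.20 for Trem1 to -2.09 for 1100001G20Rik.

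The next question was whether the members rise and fall together from mouse to mouse once genotype and age are taken out. Each value was set against its group mean on the log2 scale, and the slope of every gene on S100a8 was tested with the 4 group means in the fit. All 9 other members had a called slope above 0, beside 4.46% of the 14029 genes tested (4.12% above 0 and 0.342% below). S100a9 followed S100a8 almost exactly, with a slope of 0.99 (SE 0.024) and r = 0.998 over 20 mice. Slopes of about 1 or above were also found for Ngp at 1.10 (SE 0.069), Camp at 1.22 (SE 0.093), Ltf at 1.04 (SE 0.059) and 1100001G20Rik at 1.06 (SE 0.073). Slopes were lower for Retnlg at 0.92 (SE 0.036), Trem1 at 0.80 (SE 0.058), Mmp9 at 0.75 (SE 0.043) and Cxcr2 at 0.63 (SE 0.11). The adjusted p of Trem1 was 5.54e-10 and that of Cxcr2, the largest of the 9, was 0.000983 (limma).

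Pearson r of the deviations from the group means with S100a8 over 20 mice was between 0.955 and 0.998 for 8 members and 0.830 for Cxcr2. Permuting mice within groups gave two-sided p from 1e-05, the smallest that 100000 permutations can give, to 0.00029 for Cxcr2, and 0.00198 to 0.0175 after adjustment over all 14029 genes. Spearman's rho ran from 0.755 for Cxcr2 (permutation p = 0.00393, adjusted 0.113) to 0.994 for S100a9, and the 8 members other than Cxcr2 passed after adjustment. Without the 2 mice farthest from the median of S100a8 (mThy1-α-synuclein replicate 3 and WT replicate 4, both of 7 months), r was 0.828 for Cxcr2 and 0.930 to 0.997 for the others. Trem1 stood at rank 32 of all genes by r with S100a8 and Cxcr2 at rank 207.

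Each age was also taken alone. At 7 months r with S100a8 was between 0.935 for Cxcr2 and 0.999 for S100a9 over 10 mice, and all 9 slopes were called, beside 4.27% of all genes (3.74% above 0). At 10 months r was 0.994 for S100a9, 0.987 for Retnlg, 0.947 for 1100001G20Rik, 0.946 for Mmp9, 0.898 for Ltf, 0.894 for Trem1, 0.845 for Ngp, 0.806 for Camp and 0.659 for Cxcr2. Of the 9 slopes at 10 months 6 were called, beside 0.406% of all genes, and those of Ngp (1.02, adjusted p = 0.154), Camp (1.13, adjusted p = 0.371) and Cxcr2 (0.74, adjusted p = 0.997, limma) were not. By the exact permutation test of r within an age, the unadjusted p ran from 5.8e-05 to 0.0039 at 7 months and from 6.9e-05 to 0.032 at 10 months. No member passed adjustment over all genes. The smallest p that this test can give is 5.79e-05 at 7 months and 6.94e-05 at 10 months. A gene alone at that floor cannot pass adjustment over 14029 genes, so this result cannot decide on co-variation within an age. An alternative without the 6 mThy1-α-synuclein mice of 7 months was chosen after seeing the data. In it 8 of 9 slopes were called, beside 166 of the 14029 genes, and that of Cxcr2 was not (adjusted p = 0.314, limma).

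**Figure D3:**
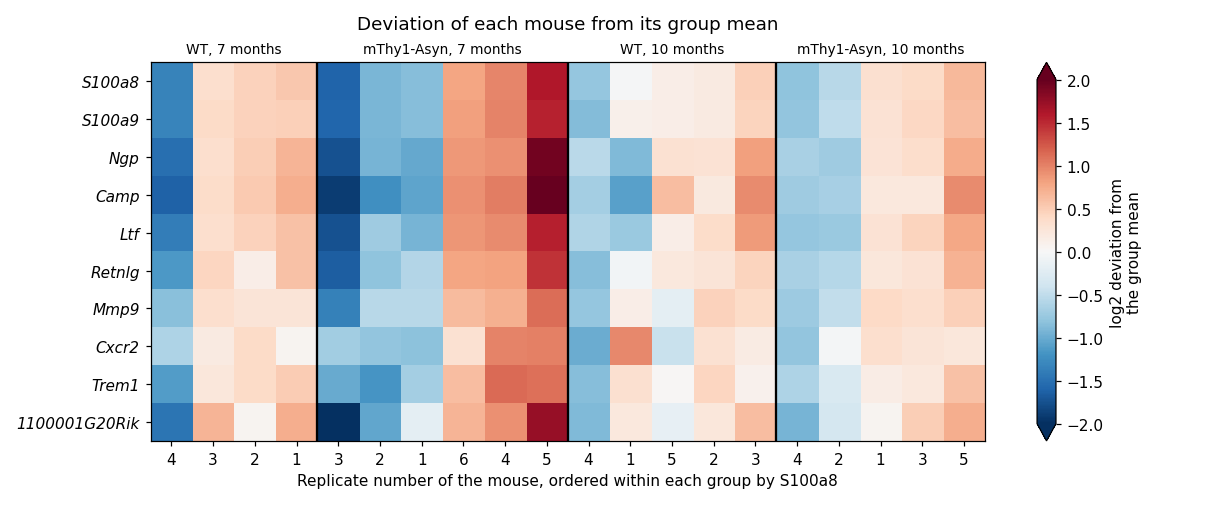
Log2 deviation of each gene (rows) from its group mean in each of the 20 mice (columns, by group and ordered within a group by S100a8), on a colour scale from -2 to 2. Most columns are of 1 colour, and WT replicate 1 of 10 months is above its group mean for Cxcr2 and below it for Ngp, Camp and Ltf.

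Among themselves the 10 genes made 45 pairs, with a median r of 0.952 over 20 mice and a range from 0.666 to 0.998. The pairs share libraries and size factors, and these correlations are a description. The tightest pairs were S100a8 with S100a9 (r = 0.998), the secondary granule genes Ngp with Camp (0.995) and Ngp with Ltf (0.992), and S100a8 with Retnlg (0.988). The 8 loosest pairs all held Cxcr2, with r = 0.666 for Camp, 0.686 for Ngp and 0.711 for Ltf. At 7 months the median r was 0.971 and the lowest 0.842 (n = 10 mice). At 10 months the median was 0.845, and Cxcr2 had r = 0.126 with Camp, 0.193 with Ngp and 0.321 with Ltf (n = 10 mice).

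In WT replicate 1 of 10 months Cxcr2 and the granule genes parted most. The log2 ratio of Ngp to Cxcr2 was 1.32 in this mouse and between 3.15 and 3.92 in the other 4 WT mice of that age, and between 3.12 and 4.33 in the mThy1-α-synuclein mice of 10 months. Among the mice of 7 months it ran from 2.73 in WT replicate 4 to 4.80 in mThy1-α-synuclein replicate 5, with 2.82 in mThy1-α-synuclein replicate 3. These were the WT mouse lowest for S100a8 and the mThy1-α-synuclein mice highest and lowest for it.

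**Figure D4:**
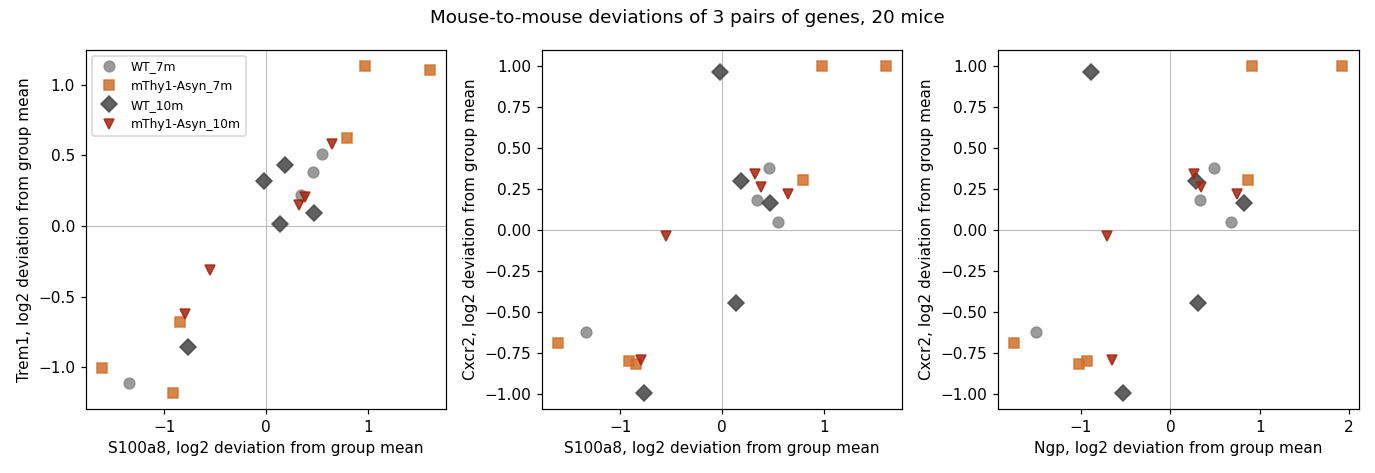
Log2 deviations from the group mean for S100a8 with Trem1 (r = 0.955), S100a8 with Cxcr2 (r = 0.830) and Ngp with Cxcr2 (r = 0.686), with 1 point for each of 20 mice, marked by group. In the plot of Ngp with Cxcr2, WT replicate 1 of 10 months lies apart, with Cxcr2 above and Ngp below its group mean.

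With Trem1 in the place of S100a8, all 9 other members had called slopes, from 0.81 (SE 0.095) for Cxcr2 to 1.33 (SE 0.19) for Camp, beside 4.3% of all genes (4.03% above 0 and 0.271% below). Trem1 was closest to S100a9 (r = 0.962, n = 20) and S100a8 (r = 0.955, permutation p = 5e-05, adjusted 0.00662) and least close to Camp (0.874), Ngp (0.880) and Ltf (0.886). Cxcr2, the loosest member around S100a8, had r = 0.899 with Trem1. The adjusted permutation p of r was at most 0.0205, and that of rho was under 0.05 for 6 members, 0.0728 for Ltf, 0.0973 for Ngp and 0.0975 for Camp. Without the 2 mice farthest from the median of Trem1 (mThy1-α-synuclein replicate 2 and WT replicate 4 of 7 months), r ran from 0.836 for Camp to 0.962 for S100a9. At 7 months alone all 9 slopes were called, beside 4.46% of all genes (3.89% above 0). At 10 months alone 5 were, beside 0.485%: those of S100a8, S100a9, Retnlg, Mmp9 and 1100001G20Rik, while those of Cxcr2 (1.06, adjusted p = 0.145), Ltf (0.95, 0.836), Ngp (0.81, 0.948) and Camp (0.88, 0.972, limma) were not. Without the mThy1-α-synuclein mice of 7 months 6 of 9 slopes on Trem1 were called, beside 172 of 14029 genes. Those of Ltf (adjusted p = 0.0615), Ngp (0.107) and Camp (0.185, limma) were not.

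Outside the members, the genes most like S100a8 by r of these deviations over the 20 mice were Cd24a (0.994), Mmp8 (0.992), Lcn2 (0.991), Anxa1 (0.987), Ifitm6 (0.987), Chil1 (0.987), Chil3 (0.985), Cd177 (0.979), Pglyrp1 (0.975) and Padi4 (0.973). Mmp8 and Lcn2 encode secondary granule proteins, neutrophil collagenase and lipocalin-2, Cd177 a neutrophil surface protein and Padi4 a deiminase that citrullinates histones. Around Trem1 the closest were Anxa1 (0.978), Pygl (0.970), Slc2a3 (0.969), Mrgpra2a (0.969), Fpr2 (0.968), Fpr1 (0.968), Mrgpra2b (0.967), Chil1 (0.967), S100a6 (0.965) and Nfe2 (0.962). Fpr1 and Fpr2 are receptors for formylated peptides, Pygl encodes a glycogen phosphorylase and Slc2a3 a glucose transporter. Mrgpra2a and Mrgpra2b are near-identical copies, and how reads were split between them is not given in the sources used here.

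The other neutrophil genes were put in lists named for primary granules, for secondary and tertiary granules, and for surface and cytosol. Not every listed gene encodes a granule protein, Cebpe being an example. All 6 genes of the primary granule list had called slopes on S100a8, namely Elane at 2.12, Mpo at 1.97, Ctsg at 1.95, Ms4a3 at 1.95, Prtn3 at 1.86 and Cebpe, a transcription factor gene, at 1.00. Elane, Ctsg and Prtn3 encode serine proteases and Mpo myeloperoxidase, all made at the promyelocyte stage. A slope of about 2 means that their level moved by more than that of S100a8, and the log2 ratio of Mpo to S100a8 ran from -6.98 in WT replicate 1 of 10 months to -3.48 in mThy1-α-synuclein replicate 5 of 7 months. None of the 6 was called between genotypes at either age, with a median log2 difference of -0.15 at 7 months and -1.51 at 10 months.

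All 12 genes of the secondary and tertiary granule list had called slopes, from 0.64 for Olfm4 to 1.69 for Fcnb, with 1.05 for Chil3 and 1.07 for Lcn2, the most abundant of the list. At 10 months 5 of the 12 were called between genotypes, all lower: Hdc (-2.03), Hp (-1.44), Chil3 (-1.39), Slpi (-1.35) and Pglyrp1 (-1.20). At 7 months none was. Their median log2 difference was -0.45 at 7 months and -1.28 at 10 months.

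Of the surface and cytosol list, 20 of 21 genes were analysed here, 19 were tested for a slope and 14 were called, all above 0, from 0.51 for Stfa2l1 to 1.05 for Lrg1. The most abundant of the list were not among them: Csf3r, the receptor for G-CSF, with 27013 normalized counts in the median mouse, had a slope of 0.031 (adjusted p = 0.781), and Cd33, with 17072, had a slope of -0.016 (adjusted p = 0.924, limma). Which cells the reads of Csf3r and Cd33 came from was not measured. At 10 months 8 of 19 were called lower in mThy1-α-synuclein mice: Cxcr1 (-3.28), Il1r2 (-1.82), Asprv1 (-1.59), Stfa2l1 (-1.55), Mrgpra2a (-1.38), Mcemp1 (-1.28), Fpr1 (-1.02) and Csf3r (-0.33), and at 7 months 0 of 18 were. Cxcr1 had a median of 3.77 normalized counts and was at 0 in 3 mice, and Stfa2l1 has near-identical copies. The genotype effects of Csf3r (-0.48, adjusted p = 0.0187) and Cxcr1 (-3.49, adjusted p = 0.0492, limma) also differed between the ages. Neither had a called slope on S100a8 (Cxcr1 at 0.30, adjusted p = 0.762, limma), so these effects are not those of genes shown to move with the members.

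**Figure D5:**
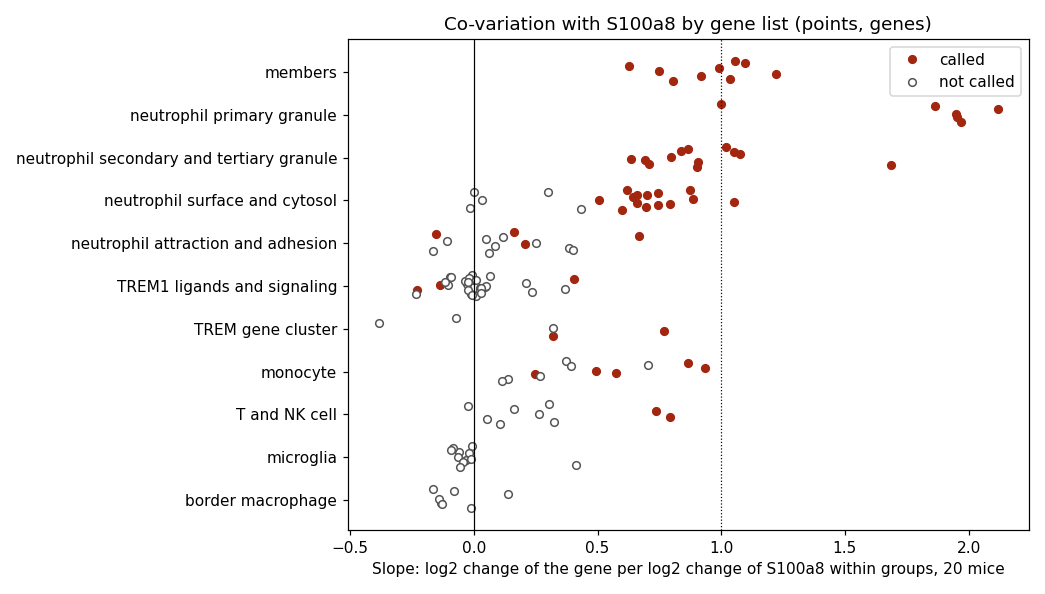
Slope of each gene (points) on S100a8 within groups over 20 mice, by gene list, with filled points for called slopes and a dotted line at a slope of 1. The points of 5 primary granule genes lie between 1.86 and 2.12, those of the members between 0.63 and 1.22, and no microglia marker has a filled point, the highest of them being Fcrls at 0.41.

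Genes for the ligands, adaptors and targets of the Trem1 receptor were set against Trem1 in the same way. Of 30 such genes, only Il1b, a target cytokine gene, had a called slope above 0 (0.57) and only Cd83 one below 0 (-0.24). Over all genes the shares were 4.03% above 0 and 0.271% below. The adaptor gene Tyrobp had a slope of -0.0094 (adjusted p = 0.966) and Hmgb1, a proposed ligand gene, of 0.040 (adjusted p = 0.774, limma). The cells that the reads of these genes came from were not measured either. Between genotypes Tlr4 was called at 7 months (0.44), beside 4.93% of all genes tested. At 10 months 5 of 29 were called, beside 7.67%: Il1b (-1.40), Ccl2 (-0.63), Myd88 (-0.34) and Syk (-0.32) lower and Lat2 (0.35) higher. The median of the list was 0.064 at 7 months and -0.060 at 10 months.

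The Trem1 gene has relatives beside it on chromosome 17. Trem3, a further activating receptor gene, had a slope of 0.90 on Trem1 (adjusted p = 2.6e-09) and a difference of -1.13 at 10 months (adjusted p = 0.0216), and Treml2 had a slope of 0.42 (adjusted p = 0.00517, limma). Trem2, the microglial receptor gene of this family, had a slope of -0.11 (adjusted p = 0.350) and log2 differences of 0.074 at 7 months and 0.16 at 10 months, neither called.

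Of the 18 genes for attraction and adhesion 13 were tested, and Cxcl5 and Il17a were listed at 0 in all 20 mice and Csf3 in 19. At 10 months the chemokine genes Cxcl2 (-1.20) and Cxcl1 (-1.14), the complement receptor gene C5ar1 (-0.66), and the leukotriene pathway genes Lta4h (-0.38) and Alox5ap (-0.29) were among those called lower. Itgam, the gene of CD11b, was called higher (0.22, adjusted p = 0.0408, limma), and Selplg, the next most abundant of the list, was not called at either age (0.058 and -0.044). Cxcl1 (slope -0.16, adjusted p = 0.750) and Cxcl2 (0.25, adjusted p = 0.297) had no called slope on S100a8, while Lta4h (0.21) and Alox5 (0.16) had one above 0 and Icam1 (-0.16) one below. At 7 months Alox5ap (-0.40) was the only one of the 13 called.

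Markers of other cells were set against S100a8 in the same way, and their part in the co-variation was not tested. Of 11 monocyte genes 5 had called slopes, all above 0 (Ly6c2 0.93, Hp 0.86, Plac8 0.57, Fn1 0.49 and Ccr2 0.25). Hp is also a neutrophil granule gene. Of 9 T and NK cell genes 2 had one, Cd3d (0.79) and Nkg7 (0.74). No gene of the microglia (11 tested), border macrophage (7), astrocyte (6), neuron (6), oligodendrocyte (6), endothelial (6), platelet (6), B cell (5) and erythroid (1) lists had a called slope on S100a8 or on Trem1.

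Fits with log2 S100a8 as a further term in the genotype comparison were chosen after seeing the data. At 7 months 3 members were called, beside 766 of the 13886 genes tested. Camp was higher in mThy1-α-synuclein mice at equal S100a8 (0.46, adjusted p = 0.00440), and Retnlg (-0.50, adjusted p = 0.00462) and Mmp9 (-0.36, adjusted p = 0.0160, limma) were lower. At 10 months no member was called in this fit, beside 36 of the 13626 genes tested. The nearest were 1100001G20Rik (-0.95, adjusted p = 0.0557) and Retnlg (-0.46, adjusted p = 0.0823, limma). S100a8 itself differed by -1.08 between the genotypes at 10 months, so that its term overlaps with genotype. The lack of calls therefore does not show that the differences are absent at equal S100a8. Trem1 at equal S100a8 differed by -0.16 at 7 months (adjusted p = 0.557) and by -0.35 at 10 months (adjusted p = 0.452, limma).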

How the data were processed

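RNA of 20 brain microglial preparations, 1 per mouse, was analysed. Per the labels, the submitters trimmed reads with Trim Galore 0.6.7, aligned them to mm10 with HISAT2 2.2.1, counted them with featureCounts and normalized them with DESeq2 1.44.0, separately at each age. The counting settings are not given in the sources used here. The deposited signal values are gene counts divided by 1 size factor per mouse, and the 20 single-mouse files equalled the matrix. Whole reads were recovered from these values (100% of values whole within 0.01 of a read in each mouse), and 33404096 to 77806399 reads per mouse set the counting precision. The size factor of mThy1-α-synuclein replicate 5 of 10 months, 0.997, was too near 1 for a further test of its recovered reads.

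Genes that reached 10 in 4 or more mice (7 months) or 5 or more (10 months) were tested with limma 3.58.1 (R 4.3.3; trend and robust options) on log2(value + 1), a scale that understates changes of low genes, with Benjamini-Hochberg adjustment at 0.05. The genotypes were compared at each age, the effects were compared between ages, and slopes on log2 S100a8 and on log2 Trem1 were fitted with the 4 group means as terms. Pearson and Spearman correlations of deviations from group means had 100000 permutations within groups (seed 1), or all permutations within an age. Alternatives were pseudocounts of 0.5 and 5, no filter, edgeR 4.0.16 with TMM and DESeq2 1.42.0 on recovered reads, log2 CPM with TMM, a replicate block, each age alone, and leaving out mice. The code was tested on simulated data. Python 3.11.15 with NumPy 2.4.6, SciPy 1.17.1 and pandas 2.3.3 was used.

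The members, the gene lists and the tests were chosen with earlier results of these data known. Named are the members, list genes past the threshold, the 2 most abundant genes of each neutrophil list and the 10 genes most like S100a8 and Trem1. Other named genes (Tyrobp, Hmgb1, Trem2, the extremes of lists and markers near 0) were chosen after their values were seen. Mice are separate animals. Some genes of the lists are counted but not reported here by name.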

Additional observations from a re-analysis of the deposited data

Results flagged for a closer look

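In the WT mice of 7 months, replicate 4 stood apart from the other 3 for S100a9, at 28270 normalized counts, and for Mmp9, at 2372 normalized counts. The gap to the next mouse was 0.914 and 0.905 of the range of the group, above Dixon's 95% critical value of 0.829 for 4 samples. Of 40 gene and group combinations tested, 2 passed this value, and chance gives about 1 in 20. The members move together, so that the combinations are not independent.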

How the results depend on the processing

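At 7 months 684 of 13887 genes were called, 1166 of 13342 with DESeq2 and 414 with the replicate block. The S100a8 term gave 766 of 13886, and leaving out a mouse 282 to 858. At 10 months 1045 of 13627 were called, 1697 of 13359 with DESeq2 and 1080 with edgeR. The replicate block gave 916, no filter 860 of 18595, the S100a8 term 36 of 13626 and leaving out a mouse 497 to 1235. The effects differed between ages for 926 genes, 481 with the replicate block. Slopes on S100a8 were called for 626 of 14029 genes, 289 with the replicate block, 57 in 10-month mice and 166 without the mThy1-α-synuclein mice of 7 months. On Trem1 the counts were 603, 281, 68 and 172. Of the members, 3 were called at 7 months with the S100a8 term (otherwise 0). At 10 months 7 were with DESeq2, 7 with the replicate block, 5 with edgeR, 3 without the filter, 0 with the S100a8 term and 1 to 7 without a mouse (4 with either other pseudocount, as in the report). On Trem1, 5 of 9 were in 10-month mice, 6 without the mThy1-α-synuclein mice of 7 months and 8 with the replicate block, which lost Camp (adjusted p = 0.0651, limma). The median r over pairs, 0.952, was 0.845 in 10-month mice, 0.928 without the 2 farthest mice, 0.910 without the mThy1-α-synuclein mice of 7 months and 0.939 to 0.960 without a mouse. Signs turned at 7 months for Ngp (edgeR 0.0071, DESeq2 0.000149, S100a8 term 0.20, without a mouse -0.85 to 0.0027), Camp (0.33, 0.33, 0.46, and -0.69 to 0.23) and Ltf (S100a8 term 0.13). At 10 months they turned with the S100a8 term for Ngp (0.26), Camp (0.22) and Ltf (0.37). Between ages they turned with the replicate block for S100a8 (0.015), Ngp (0.21), Ltf (0.15), Retnlg (0.0025) and Mmp9 (0.038), with the S100a8 term for Ngp (0.15), Ltf (0.14) and Mmp9 (0.039), and without a mouse for Ngp (-0.84 to 0.0078) and Ltf (-0.81 to 0.00072). The cause was not tested. The S100a8 term and the fits without the mThy1-α-synuclein mice of 7 months were chosen after seeing the data. Same-numbered mice of both genotypes had correlations of deviations from -0.134 to 0.0995, and mice with different numbers from -0.218 to 0.182. These values show no pairing by number, but with so few pairs they cannot exclude it.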

Other observations

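The log2 ratio of S100a9 to S100a8, a description chosen after the values were seen and not tested, was 0.374 to 0.453 in mThy1-α-synuclein mice of 10 months and 0.519 to 0.747 in WT mice of that age, without overlap. At 7 months it was 0.362 to 0.462 in mThy1-α-synuclein mice and 0.462 to 0.578 in WT mice. The log2 ratio of S100a8 to Trem1 was 4.64 to 5.74 over the 20 mice, and its groups overlapped at both ages.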
